A study of Mus musculus with 11 samples.

Results

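The expression of 10 genes of the intestinal crypt was followed by symbol in the transcriptomes of 11 mice: Lgr5, Olfm4, Ascl2, Smoc2, Tnfrsf19, Msi1 and Lrig1, used as markers of crypt stem cells, and Axin2, Rnf43 and Znrf3, feedback genes of the Wnt pathway. These 10 genes are 10 of the 31168 in the count table and 10 of the 15911 with enough counts to be tested, so none was lost to the filter on low counts. The RNA came from 2 cm of distal ileum, the end of the small intestine, of mice given dextran sodium sulfate, a polysaccharide that injures the gut lining. All mice carried H2-Ab1 fl/fl, floxed alleles of the gene for the beta chain of an MHC class II molecule. The 6 mice called WT were H2-Ab1 fl/fl; Villin:Cre-, so they also carried the floxed alleles. The 5 mice called dIEC were H2-Ab1 fl/fl; Villin:Cre+, in which Cre is driven by the villin promoter, active in intestinal epithelial cells and their crypt progenitors. The series' design text gives Villin:Cre- for all mice, but the sample labels give Cre+ for the dIEC mice and were followed here. Age, sex, dose and days of treatment are not given in the sources used, and no untreated mice were among the samples.

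Crypt base columnar cells are the dividing stem cells at the bottom of each crypt, from which the epithelium of the villus is renewed. Wnt ligands from Paneth cells and the surrounding stroma bind Frizzled and Lrp receptors on these cells, which stabilises beta-catenin and switches on target genes through TCF/LEF factors. R-spondins, bound by Lgr receptors, strengthen this signal by removing the ubiquitin ligases Rnf43 and Znrf3, which otherwise take Frizzled off the cell surface. Lgr5, Ascl2, Axin2, Tnfrsf19, Rnf43 and Znrf3 are known Wnt targets, so several of these genes both report on the pathway and act in it.

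Whole tissue was sequenced, and crypt stem cells are a small part of it. In bulk samples such as these, fewer cells of a type and less RNA per cell cannot be told apart. Libraries held 6603965 to 9681698 counts, and 22.9 to 37.3% of these fell on protein-coding genes, leaving out Lars2. Such coding counts ran from 1510296 (dIEC replicate 5) to 3215574 (WT replicate 9). Ribosomal RNA rows, with Gm42418, held 26.2% (WT replicate 4) to 49.2% (dIEC replicate 5) of the counts. Their share was 45.4% in dIEC replicate 1, 44.5% in dIEC replicate 6 and 43.4% in WT replicate 8. Levels are given as CPM, counts per 1000000 counts of a library's total scaled by its TMM factor (0.747 to 1.25). The targeted gene, H2-Ab1, averaged 82.7 ± 27.2 CPM in WT (SD, n = 6), with libraries from 47.2 to 111 CPM. In dIEC it averaged 25.8 ± 9.82 CPM (n = 5), with libraries from 16.8 to 39.0 CPM. The exact permutation p was 0.00433 (two-sided), the smallest that 462 splits allow. Over all genes H2-Ab1 missed the threshold as well (log2 fold change -1.68, edgeR adjusted p = 0.363). The tissue carried the markers of ileal mucosa: the epithelium list summed to 2625 to 4349 CPM, the Paneth cell list to 1654 to 4883 CPM and the absorptive enterocyte list to 3143 to 12658 CPM, and no listed gene was at 0 in every library. Smooth muscle genes summed to 1403 to 5107 CPM, so muscle wall was part of every piece. All p-values take the library as the unit, and libraries may share a cage, litter or batch that the labels do not name.

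Taken gene by gene, all 10 had a log2 fold change below 0 in dIEC, but none passed the test over all genes. Values below 0 were found in 10 of 10 genes with a median of -0.37, against 8149 of 15911 genes (51.2%) and a median of -0.01 over all genes tested. With edgeR, 0 of the 10 passed the adjusted threshold of 0.05, and 1 of the 15911 genes did (0.00628%). Msi1, Tnfrsf19 and Lrig1 had an unadjusted p under 0.05, 3 of 10 genes, against 1695 of all genes (10.7%), of which 922 were lower in dIEC (5.79%). DESeq2 called 0 of the 10 and 11 of 15904 genes (0.0692%), and gave 3 of the 10 an unadjusted p under 0.05, against 10.1% of all genes. The WT and dIEC libraries overlapped for each of the 10 genes. Over all genes, 53 had every dIEC library below every WT library (0.333%).

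**Figure D1:**
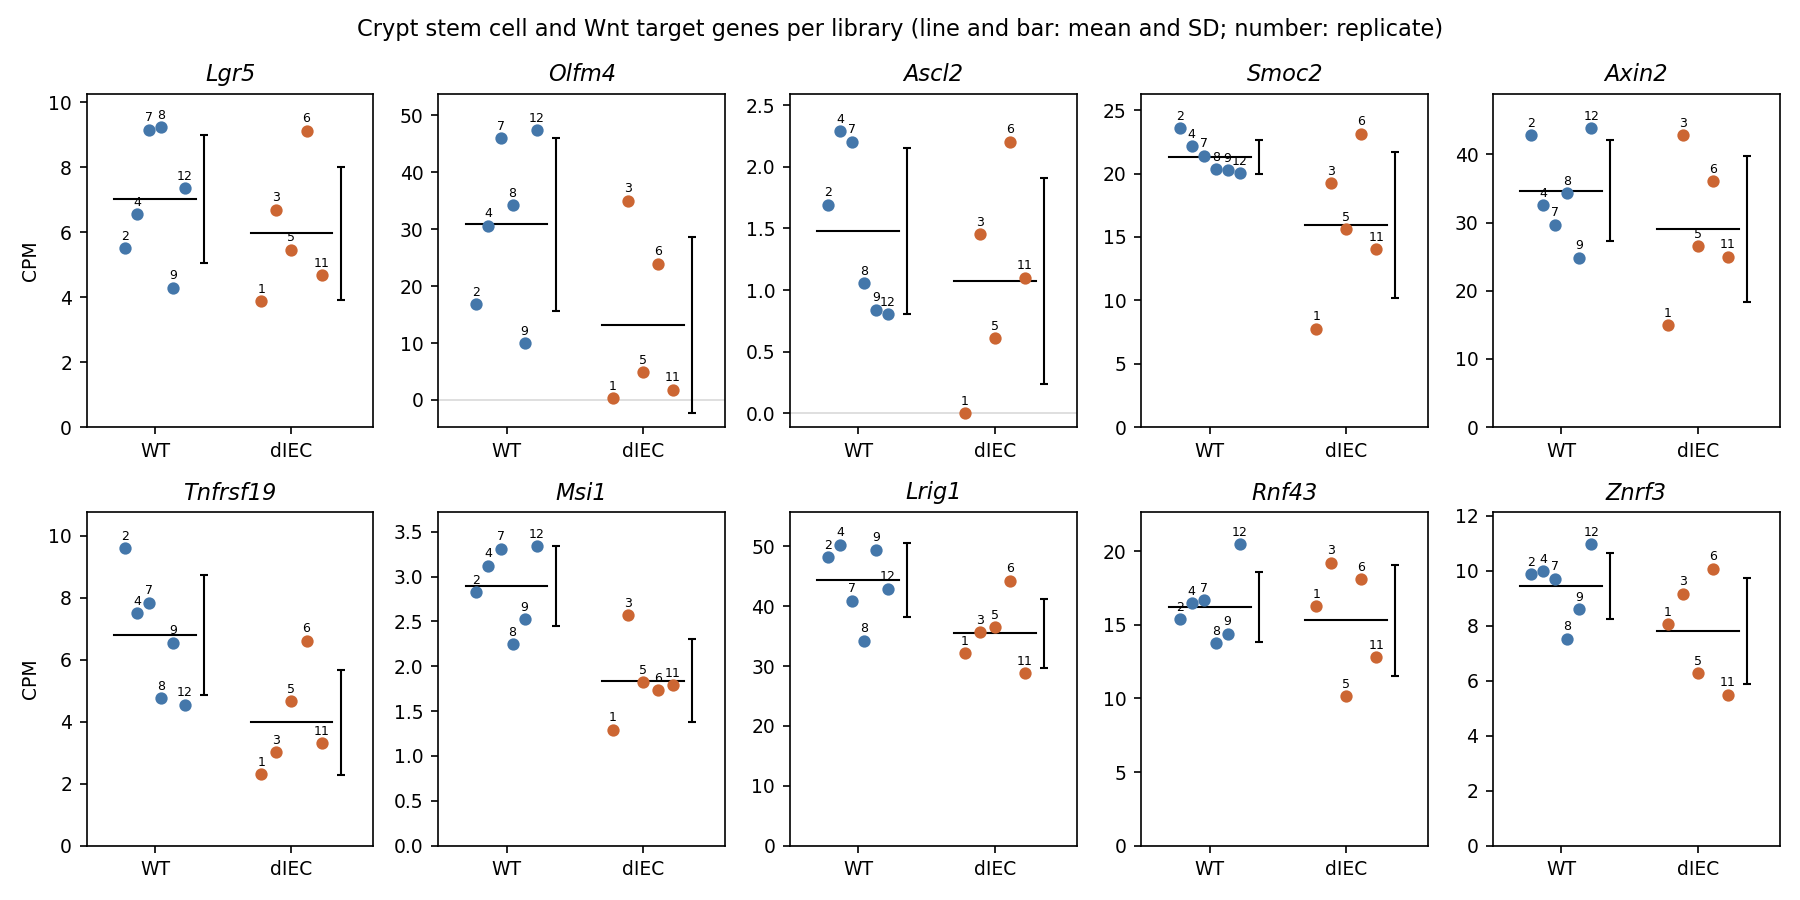
CPM of each of the 10 genes in each library, WT in blue and dIEC in orange, each panel with its own linear scale; the line and bar give mean and SD, and the number beside a point is the replicate. Replicates 3 and 6 of dIEC sit among the WT points in most panels, while dIEC replicate 1 is the lowest point for 7 of the 10 genes.

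The order of the genes by level was compared per length, as CPM per 1000 bases of merged exon (RPKM). In WT, Olfm4 stood first with 10.4 ± 5.10 RPKM (SD, n = 6), followed by Lrig1 with 7.94 ± 1.11 and Axin2 with 6.30 ± 1.35 RPKM, and these neighbours lay within their spread of each other. Smoc2 followed with 3.07 ± 0.198 RPKM, clear of Axin2, and Rnf43 with 2.47 ± 0.363 RPKM. Tnfrsf19 at 1.43 ± 0.408, Znrf3 at 1.20 ± 0.153, Ascl2 at 0.913 ± 0.416, Lgr5 at 0.684 ± 0.193 and Msi1 at 0.499 ± 0.0767 RPKM formed the lower end, each within its spread of the next. In dIEC the first 3 places were taken by Lrig1 with 6.35 ± 1.03 RPKM (SD, n = 5), Axin2 with 5.28 ± 1.95 and Olfm4 with 4.45 ± 5.22 RPKM, and the SDs of these 3 overlapped. Lgr5, the receptor by which the stem cells are usually marked, rested on 27 to 83 counts per library, and Ascl2 on 0 to 22, so counting error alone is large for both.

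Olfm4 encodes a secreted glycoprotein made in quantity by crypt base columnar cells. Its position is chromosome 14, 79984081 to 80023139, plus strand (GRCm38, as for all genes below), and 153 of its exon bases are shared with the long non-coding gene Gm6999 on the same strand. The lowest WT library had 10.003 CPM, the median was 32.4 and the highest had 47.3 CPM. In dIEC, replicate 3 had 34.97 CPM and replicate 6 had 23.9, inside the WT range. Replicate 5 had 4.86 CPM (24 counts), replicate 11 had 1.79 CPM (13 counts) and replicate 1 had 0.288 CPM (2 counts). These 3 libraries lay below the lowest WT library, and the highest dIEC library was 122 times the lowest, against 4.73 times in WT. The coefficient of variation was 117% in dIEC and 49.0% in WT, where counting error alone would give 9.96% and 6.22%. Means (± SD here and for the genes below) were 30.8 ± 15.1 CPM for WT and 13.2 ± 15.5 CPM for dIEC, and the log2 fold change came to -1.19 (SE 0.81, 95% interval from -2.98 to 0.61; edgeR adjusted p = 0.589, exact permutation p = 0.0952). The point estimate was the lowest of the 10 genes and its interval the widest. Leaving out 1 library moved it to between -2.004 (without dIEC replicate 3) and -0.87 (without dIEC replicate 1).

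The 250 bases before the start of 6 of the 10 genes were read from RefSeq (GRCm38.p6), as 8 windows, and searched on both strands for 4 letter strings known from pathways that act in the crypt and chosen after the windows had been seen. CTTTGAA and CTTTGAT, cores of the TCF/LEF motif through which Wnt acts, occur in 4.46% and 3.21% of 32851 RefSeq windows of this length. TGGGAA, the core bound by the Notch factor RBPJ, occurs in 21.6%, and GGG and TTTCC with any 2 bases between them, an NF-kappaB motif, in 1.41%. The strings do not overlap one another in the windows where they were found. Of these, 3 windows are printed 5′ to 3′ along the gene's strand, ending at the base before the start, with the matched letters in capitals, because Olfm4 held 2 matches, Tnfrsf19 the 1 match to a TCF/LEF core, and Axin2, the Wnt target used most widely as a reporter, none.
Olfm4, chr14:80000052-80000301, plus strand: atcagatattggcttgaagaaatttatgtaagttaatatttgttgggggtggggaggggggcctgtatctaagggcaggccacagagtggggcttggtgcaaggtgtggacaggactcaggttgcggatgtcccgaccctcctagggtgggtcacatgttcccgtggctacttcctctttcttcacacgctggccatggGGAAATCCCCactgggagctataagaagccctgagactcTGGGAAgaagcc
Tnfrsf19, second RefSeq start, chr14:61037988-61038237, minus strand: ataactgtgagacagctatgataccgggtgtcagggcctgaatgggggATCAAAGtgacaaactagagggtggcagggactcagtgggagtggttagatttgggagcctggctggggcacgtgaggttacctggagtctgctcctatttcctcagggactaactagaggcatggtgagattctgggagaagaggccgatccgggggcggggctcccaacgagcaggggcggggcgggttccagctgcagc
Axin2, chr11:108920099-108920348, plus strand: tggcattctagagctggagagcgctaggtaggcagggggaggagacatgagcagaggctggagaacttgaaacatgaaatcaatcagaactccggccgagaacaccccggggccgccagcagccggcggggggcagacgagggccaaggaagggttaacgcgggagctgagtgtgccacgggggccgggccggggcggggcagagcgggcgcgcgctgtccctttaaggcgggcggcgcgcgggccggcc
The starts are those of RefSeq, and the gene positions given for each gene are those of GENCODE. The printed Olfm4 and Tnfrsf19 windows lie inside these gene positions, so their starts are not the outermost ones. In the Olfm4 window the NF-kappaB string lies on the opposite strand, 51 to 42 bases before the start, and the RBPJ core on the gene's strand, 12 to 7 bases before it. In the Tnfrsf19 window the TCF/LEF core CTTTGAT lies on the opposite strand, 202 to 196 bases before the start. The windows of Ascl2, Axin2, Lrig1, Rnf43 (2 starts) and the other start of Tnfrsf19 held none of the 4 strings. A match is a match of letters, and no binding was measured in these samples.

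Lgr5 encodes the R-spondin receptor that marks crypt base columnar cells (chromosome 10, 115450311 to 115587780, minus strand). WT libraries ran from 4.30 CPM through a median of 6.96 to 9.25 CPM. The dIEC libraries had 3.88 CPM in replicate 1, 6.70 in replicate 3, 5.47 in replicate 5, 9.13 in replicate 6 and 4.67 in replicate 11. In dIEC, 1 library was below the lowest WT library, and replicate 6 was close to the highest. Means were 7.02 ± 1.98 and 5.97 ± 2.05 CPM, giving a log2 fold change of -0.23 (SE 0.24, 95% interval from -0.74 to 0.29; edgeR adjusted p = 0.736, exact permutation p = 0.394). The difference was smaller than the spread within either group, and it came to -0.10 with dIEC replicate 1 left out and to -0.42 with replicate 6 left out on the log2 scale.

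Ascl2, a transcription factor that maintains stem cell identity under Wnt (chromosome 7, 142966829 to 142969264, minus strand), was counted least. WT libraries ran from 0.802 CPM through a median of 1.38 to 2.29 CPM. In dIEC, replicate 1 had 0 counts, which allows up to 0.431 CPM by counting error, replicate 5 had 0.608 CPM from 3 counts, and replicates 11, 3 and 6 had 1.10, 1.45 and 2.20 CPM. The log2 fold change came to -0.44 (SE 0.51, 95% interval from -1.53 to 0.65; edgeR adjusted p = 0.762, exact permutation p = 0.390), so no difference was detectable with these libraries. It came to -0.12 with dIEC replicate 1 left out and to -0.82 with replicate 6 left out.

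Smoc2 encodes a secreted matrix protein of the crypt base that binds calcium, and stromal cells make it too (chromosome 17, 14279506 to 14404790, plus strand). The 6 WT libraries lay close together, from 20.1 CPM through a median of 20.9 to 23.6 CPM, with a coefficient of variation of 6.45% where counting error alone gives 7.40%. In dIEC, replicate 6 had 23.1 CPM, replicate 3 had 19.2, replicate 5 had 15.6, replicate 11 had 14.0 and replicate 1 had 7.76 CPM. Of the 5 dIEC libraries, 4 lay below the lowest WT library, and the coefficient of variation was 36.2% against a counting error of 9.52%. The means were 21.3 ± 1.37 and 15.9 ± 5.77 CPM, and the log2 fold change came to -0.42 (SE 0.20, 95% interval from -0.84 to 0.0040; edgeR p = 0.0519 unadjusted, adjusted p = 0.471, exact permutation p = 0.0563). Of the 10 genes it was the steadiest in WT. Its log2 fold change came to -0.24 with dIEC replicate 1 left out and to -0.58 with replicate 6 left out.

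Tnfrsf19, also called Troy, is a receptor of the TNF receptor family that marks crypt stem cells and is a Wnt target (chromosome 14, 60963875 to 61046490, minus strand). WT libraries ran from 4.55 CPM through a median of 7.02 to 9.60 CPM. In dIEC the values were 2.30 CPM in replicate 1, 3.02 in replicate 3, 4.66 in replicate 5, 6.61 in replicate 6 and 3.30 in replicate 11. All 5 lay below the WT median and 3 below the lowest WT library. The means of 6.80 ± 1.93 and 3.98 ± 1.70 CPM gave a log2 fold change of -0.80 (SE 0.26, 95% interval from -1.36 to -0.23; edgeR p = 0.00905 unadjusted, adjusted p = 0.427, exact permutation p = 0.0390). Unlike Olfm4, it was low in dIEC replicate 3 as well.

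Msi1 encodes Musashi-1, an RNA-binding protein of stem and progenitor cells (chromosome 5, 115429599 to 115455698, plus strand). WT libraries ran from 2.25 CPM through a median of 2.97 to 3.34 CPM. The dIEC values were 1.29 CPM in replicate 1, 2.57 in replicate 3, 1.82 in replicate 5, 1.73 in replicate 6 and 1.79 in replicate 11. Of these, 4 of 5 lay below the lowest WT library, the exception being replicate 3, and the gene was low also in replicate 6, where Lgr5 and Smoc2 were high. Means were 2.89 ± 0.445 and 1.84 ± 0.460 CPM, giving a log2 fold change of -0.63 (SE 0.21, 95% interval from -1.08 to -0.18; edgeR p = 0.00907 unadjusted, adjusted p = 0.427, exact permutation p = 0.0130). Libraries held 9 to 30 counts of Msi1, and its variation within WT (15.4%) was within the counting error (20.1%).

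Lrig1 encodes a membrane protein that restrains ErbB receptors and marks slowly and actively cycling crypt cells, and it is made in some stromal cells as well (chromosome 6, 94604529 to 94700158, minus strand; 144 exon bases overlap Slc25a26 on the opposite strand). WT libraries ran from 34.2 CPM through a median of 45.5 to 50.3 CPM. The dIEC libraries had 32.2, 35.6, 36.5, 44.2 and 28.9 CPM in replicates 1, 3, 5, 6 and 11. All 5 were below the WT median and 2 below the lowest WT library. The means of 44.3 ± 6.20 and 35.5 ± 5.76 CPM differed by a log2 fold change of -0.32 (SE 0.13, 95% interval from -0.59 to -0.05; edgeR p = 0.0228 unadjusted, adjusted p = 0.428, exact permutation p = 0.0476). The exact p-values of Tnfrsf19, Msi1 and Lrig1 are for single genes among the 10 and are unadjusted.

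The log2 fold changes of the 3 Wnt feedback genes ran from -0.26 to -0.07. Axin2, a scaffold of the beta-catenin destruction complex that Wnt itself induces (chromosome 11, 108920349 to 108950783, plus strand; 209 exon bases overlap the antisense gene Gm11670), ran in WT from 24.9 CPM through a median of 33.5 to 43.8 CPM. In dIEC it had 15.0, 42.8, 26.5, 36.1 and 25.006 CPM in replicates 1, 3, 5, 6 and 11, and of these replicate 1 alone lay outside the WT range. The log2 fold change came to -0.25 (SE 0.23, 95% interval from -0.74 to 0.24; edgeR adjusted p = 0.693, exact permutation p = 0.346), and it came to -0.08 with dIEC replicate 1 left out and to -0.43 with replicate 3 left out.

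Rnf43, one of the ligases that remove Frizzled (chromosome 11, 87662722 to 87735539, plus strand), ran in WT from 13.7 CPM through a median of 15.9 to 20.5 CPM. The dIEC libraries had 16.2, 19.2, 10.1, 18.1 and 12.8 CPM in replicates 1, 3, 5, 6 and 11, with 3 libraries above the WT median and 2 below the lowest WT library. The log2 fold change came to -0.07 (SE 0.16, 95% interval from -0.41 to 0.27; edgeR adjusted p = 0.899, exact permutation p = 0.645), and it crossed 0 without WT replicate 12 (0.01) or without dIEC replicate 5 (0.04). Znrf3, its paralog with the same role (chromosome 11, 5276324 to 5444847, minus strand), ran in WT from 7.53 CPM through a median of 9.80 to 10.96 CPM. In dIEC it had 8.05, 9.16, 6.28, 10.1 and 5.50 CPM in the same order of replicates, 2 of them below the lowest WT library. The log2 fold change came to -0.26 (SE 0.16, 95% interval from -0.61 to 0.08; edgeR adjusted p = 0.545, exact permutation p = 0.126), and it came to -0.16 with dIEC replicate 11 left out and to -0.37 with replicate 6 left out.

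**Figure D2:**
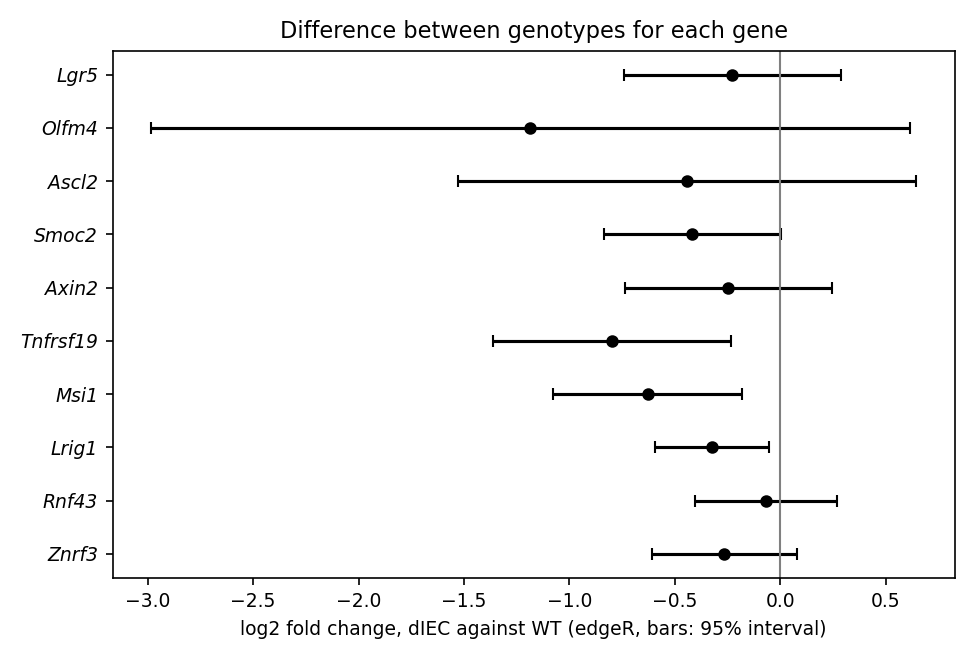
Log2 fold change of dIEC against WT for each of the 10 genes from edgeR, with points for estimates and bars for 95% intervals. All points lie left of 0, from -1.19 (Olfm4) to -0.07 (Rnf43), and the intervals of Tnfrsf19, Msi1 and Lrig1, unadjusted, leave out 0.

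The dIEC mice were not alike. Summed over the 10 genes, WT libraries had 141.8 to 201.6 CPM. In dIEC, replicates 3 and 6 had 174.7 and 175.3 CPM, inside that range, and replicates 5, 11 and 1 had 112.5, 98.8 and 87.0 CPM, below it. Without Olfm4 the WT range was 127.5 to 159.4 CPM, and the same 3 dIEC libraries lay below it, at 107.6, 97.0 and 86.7 CPM. Ranked over the 11 libraries, dIEC replicate 11 was among the lowest 3 for 9 of the 10 genes, replicate 1 for 8 and replicate 5 for 5, against 1 each for replicates 3 and 6 and 0 to 3 for the WT libraries. Replicate 1 was the lowest of all libraries for 7 genes, replicate 11 for Lrig1 and Znrf3, and replicate 5 for Rnf43. Leaving out dIEC replicate 1 moved the genes' median log2 fold change to -0.26, and leaving out replicate 6 moved it to -0.50.

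Marker genes of other cell types also differed in direction between the groups. Over all genes tested, 51.2% lay below 0, and 5.79% were lower and 4.86% higher in dIEC at an unadjusted edgeR p under 0.05. Genes of a list may vary together, so a count of them is not a count of independent results. All 18 genes of the cycling cell list had log2 fold changes below 0 (median -0.25), 0 of them at an unadjusted p under 0.05. All 12 fibroblast genes lay below 0 (median -0.76, 10 at an unadjusted p under 0.05), as did all 12 smooth muscle genes (median -0.42, 1 at that p). On the other side, all 16 epithelium genes (median 0.23, 3 at that p) and all 19 absorptive enterocyte genes tested (median 0.70, 5 at that p) lay above 0. Paneth cell genes, markers of the stem cells' neighbours at the crypt base, were split with 7 above and 3 below 0 (median 0.05). Goblet cell genes were split as well, with 5 above and 3 below 0 (median 0.04). Immune cell genes had 5 above and 4 below 0 (median 0.10, 2 higher at that p). Of 10 enteric neuron and glia genes tested, 9 lay below 0 (median -0.45, 4 lower at that p). By edgeR 0 genes of these lists passed the adjusted threshold. With the epithelium score as a covariate, the median log2 fold change of the 10 crypt genes was -0.21, and with the smooth muscle score -0.19, against -0.37 without a covariate. With the epithelium score, Msi1 was at -0.53 and Olfm4 at -1.09, while Tnfrsf19 was at -0.40 and Lrig1 at -0.14. In that fit 0 of the 10 had an unadjusted p under 0.05, against 3.81% of all genes. The part of these cell types in the result was not tested further.

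The crypt genes were also counted per 1000 counts of the epithelium list. That list was itself higher in dIEC, so this denominator lowers all of the ratios of dIEC to WT. Olfm4 was at 9.93 ± 5.14 (SD of 6 WT libraries) and at 3.67 ± 4.24 (SD of 5 dIEC libraries), a ratio of 0.370 (exact permutation p = 0.0563). Msi1 was at 0.952 ± 0.263 and 0.495 ± 0.124 (exact permutation p = 0.0130), a ratio of 0.520, and Tnfrsf19 at 2.28 ± 0.939 and 1.11 ± 0.603 (exact permutation p = 0.0476), a ratio of 0.486. Smoc2 had 6.95 ± 1.55 and 4.38 ± 1.96 (exact permutation p = 0.0390). These p-values are unadjusted over the 10 ratios computed. Lgr5, at 2.25 ± 0.650 and 1.65 ± 0.742 (exact permutation p = 0.186), and Rnf43, at 5.27 ± 1.24 and 4.14 ± 1.22 (exact permutation p = 0.152), differed by less than the spread of the libraries. With Epcam alone as the denominator, the p-values of Smoc2 and Tnfrsf19 were both 0.0519, and Msi1 stayed at 0.0173 (exact permutation tests). Leaving out 1 library raised the p of Smoc2 to as much as 0.0857 (dIEC replicate 1 or 11) and that of Tnfrsf19 to 0.0952 (dIEC replicate 1, 3 or 11), while that of Msi1 reached 0.0286.

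The marker lists were also read library by library. The cycling cell list summed to 270.1 to 341.5 CPM in WT and to 126.7, 338.2, 187.2, 379.6 and 268.8 CPM in dIEC replicates 1, 3, 5, 6 and 11, so it was lowest in replicates 1 and 5 and just below the WT range in replicate 11. Replicate 1, lowest for most crypt genes, also had the lowest smooth muscle sum (1403 CPM) and the lowest fibroblast sum (379.8 CPM). WT replicate 8 had the highest enterocyte sum of all libraries (12658 CPM) and a fibroblast sum of 418.5 CPM, both close to those of dIEC replicate 1 (11889 and 379.8 CPM). Its smooth muscle sum (2468 CPM) and cycling cell sum (299.6 CPM) were above those of dIEC replicate 1 (1403 and 126.7 CPM). Its 10 crypt genes summed to 161.7 CPM, against 87.0 CPM in dIEC replicate 1. Without Olfm4 its sum, 127.5 CPM, was the lowest of the WT libraries, and it was the lowest WT library for Msi1, Lrig1, Rnf43 and Znrf3, while its Lgr5, at 9.25 CPM, was the highest of all 11 libraries.

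**Figure D3:**
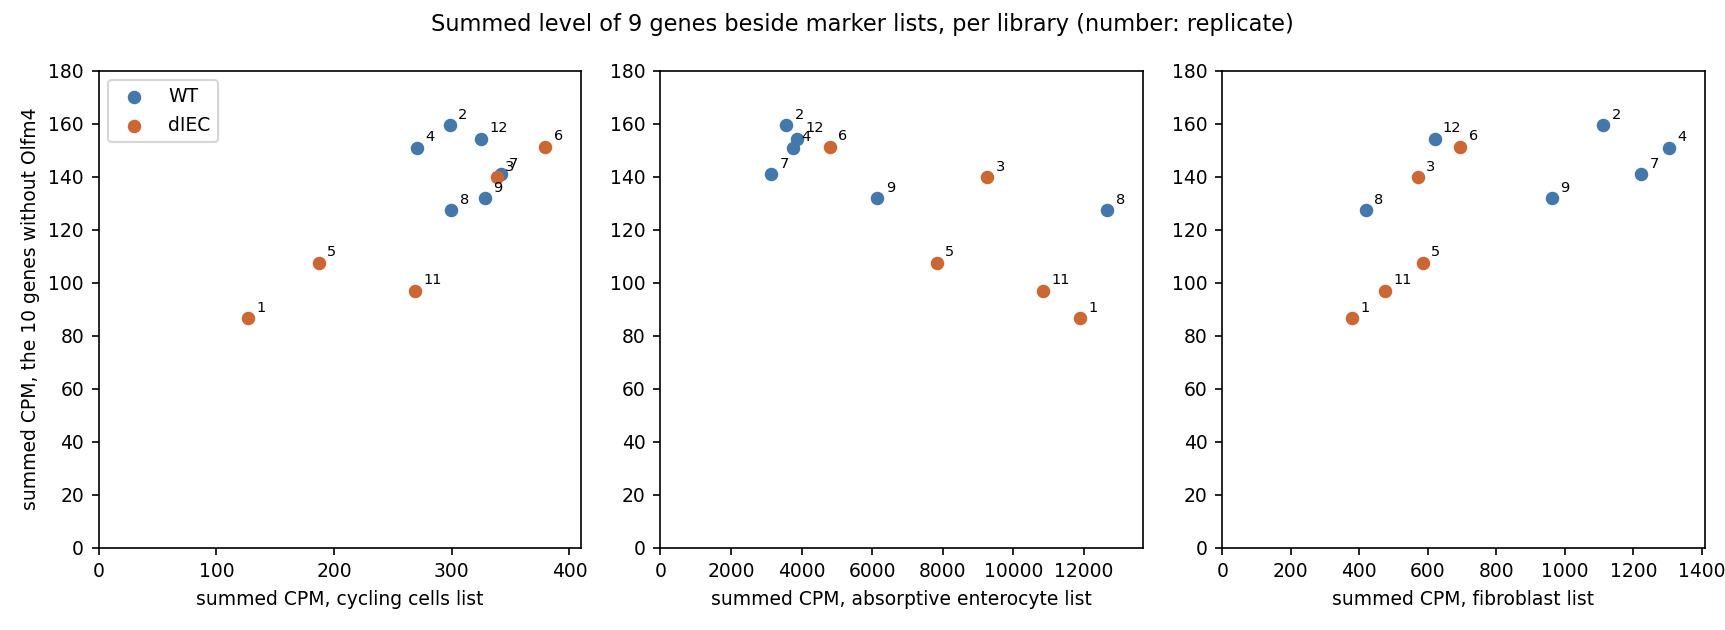
Summed CPM of 9 of the genes (Olfm4 left out) against the summed CPM of the cycling cell, absorptive enterocyte and fibroblast lists in each library, WT in blue and dIEC in orange, with replicate numbers. Replicates 1, 5 and 11 of dIEC lie at 86.7 to 107.6 CPM, below all WT libraries (127.5 to 159.4 CPM). WT replicate 8, the lowest WT library at 127.5 CPM, lies near dIEC replicate 1 on the enterocyte and fibroblast axes and apart from it on the cycling cell axis (299.6 against 126.7 CPM).

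The 10 genes varied together across the 11 libraries. All 45 pairs had a Pearson r above 0 on log2 CPM (median 0.606, range 0.0244 to 0.898). After adjustment over the 45 pairs, 15 passed by Pearson's r and 3 by Spearman's rho (permutation tests with 100000 draws). Here and for the marker scores below, the draws shuffled all 11 libraries whatever their genotype, so these p-values also take in differences between the groups. With the group means subtracted, 44 pairs were above 0 with a median of 0.418 and 6 passed. Within the 6 WT libraries, 32 pairs were above 0 with a median of 0.250. The number that passed by Pearson's r was 0 without dIEC replicate 1 and 9 without WT replicate 4, so the count rests in large part on the former library.

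The 3 pairs that passed by both measures were Lgr5 with Olfm4, Rnf43 with Znrf3 and Smoc2 with Tnfrsf19. Lgr5 and Olfm4, both markers of crypt base columnar cells, had r = 0.813 (permutation p = 0.00094, adjusted 0.0122) and rho = 0.827 (p = 0.00251, adjusted 0.0417), and r = 0.780 without the 2 libraries farthest from the median. The ligases Rnf43 and Znrf3 had r = 0.828 (permutation p = 0.00153, adjusted 0.0122) and rho = 0.827 (p = 0.00278, adjusted 0.0417), and r = 0.706 without the 2 farthest. Smoc2 and Tnfrsf19 had r = 0.800 (permutation p = 0.00075, adjusted 0.0122) and rho = 0.909 (p = 0.00025, adjusted 0.0112), and r = 0.649 without the 2 farthest. Within WT these pairs had r = 0.901, 0.881 and 0.881 over 6 libraries. The highest r of all, 0.898 between Olfm4 and Smoc2, had rho = 0.427 (permutation p = 0.193, adjusted 0.277) and r = -0.192 within WT, so it rests on the low dIEC libraries. Tnfrsf19 and Rnf43 had the lowest r, 0.0244 (permutation p = 0.945, adjusted 0.945), with rho = 0.00909 and r = 0.103 without the 2 farthest.

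Each of the 10 genes was also set against 5 marker list scores, a score being the mean log2 CPM of the list, which made 50 relations chosen after values of both had been seen. All 10 genes had r below 0 with the epithelium and the enterocyte scores (medians -0.474 and -0.625) and above 0 with the cycling cell, smooth muscle and fibroblast scores (medians 0.625, 0.674 and 0.634). After adjustment over the 50, 20 relations passed by Pearson's r, and 12 by Spearman's rho (permutation tests). The number by Pearson's r was 10 with group means subtracted and 9 without dIEC replicate 1. Tnfrsf19 and the fibroblast score had r = 0.871 (permutation p = 0.0008, adjusted 0.0166) and rho = 0.818 (p = 0.00355, adjusted 0.0444), with r = 0.795 without the 2 farthest libraries and 0.843 within WT. Lrig1 and the same score had r = 0.841 (permutation p = 0.00175, adjusted 0.0175) and rho = 0.864 (p = 0.00123, adjusted 0.0347), with r = 0.810 and 0.793. Smoc2 and the smooth muscle score had r = 0.852 (permutation p = 0.00103, adjusted 0.0166) and rho = 0.773 (p = 0.0074, adjusted 0.0466), with r = 0.448 without the 2 farthest and 0.856 within WT. Lgr5 had r = 0.218 with the fibroblast score (permutation p = 0.512, adjusted 0.545) and rho = 0.227 (p = 0.505, adjusted 0.562), with r = 0.0681 without the 2 farthest and -0.408 within WT. Its r with the cycling score was 0.592 (permutation p = 0.0516, adjusted 0.0938), with rho = 0.591 (p = 0.0617, adjusted 0.134), r = 0.595 without the 2 farthest and -0.0439 within WT. Over the 10 genes, r with the cycling score within WT ran from -0.493 (Smoc2) to 0.338 (Msi1). Of the relations to that score, 4 passed by Pearson's r and 0 by Spearman's rho. Rnf43 and the smooth muscle score had r = 0.0450 (permutation p = 0.895, adjusted 0.895), rho = 0.118 (p = 0.736, adjusted 0.751), r = 0.0141 without the 2 farthest and 0.0281 within WT. The gene and the score of a relation come from the same libraries and share their total counts.

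**Figure D4:**
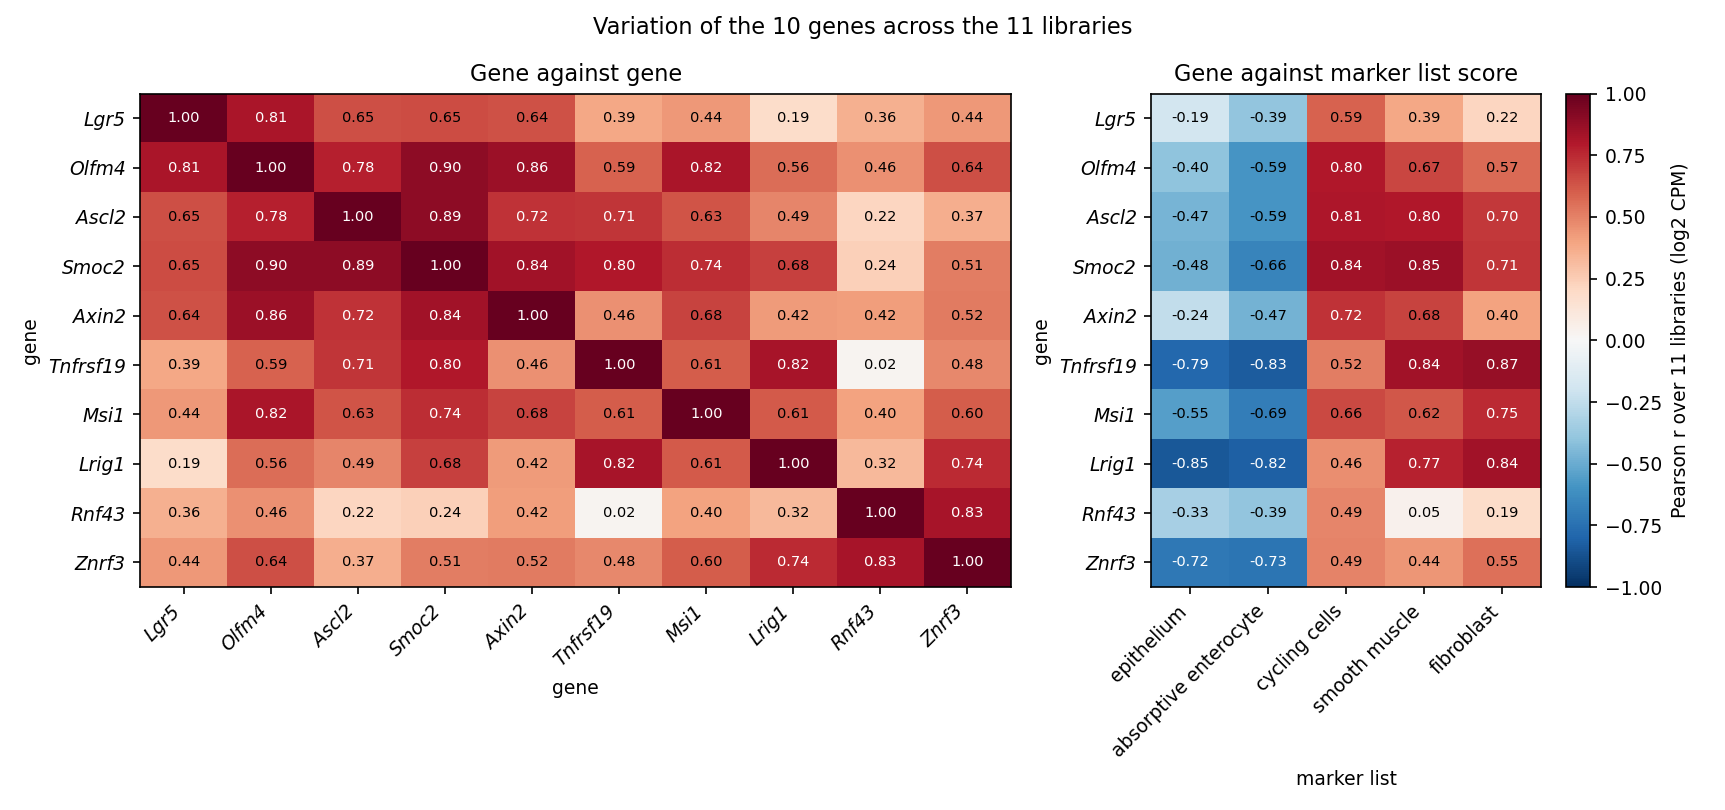
Pearson r over the 11 libraries on log2 CPM, between pairs of the 10 genes (left) and between each gene and 5 marker list scores (right), with red above 0 and blue below 0. The gene pairs run from 0.0244 to 0.898, and the 2 columns of epithelium and enterocyte scores are blue for all 10 genes.

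The genes whose pattern over the 11 libraries was most like Lgr5, among 10229 genes with a mean of at least 5 CPM, were Polr3k (r = 0.868, rho = 0.891, r = 0.760 without the 2 farthest libraries), Lrwd1 (r = 0.866, rho = 0.864, 0.769) and Hikeshi (r = 0.837, rho = 0.818, 0.723). Those most like Olfm4 were Smt3h2-ps4 (r = 0.935, rho = 0.845, 0.900), a pseudogene whose reads may be shared with its parent gene, Arih1 (r = 0.928, rho = 0.927, 0.835) and Pola2 (r = 0.926, rho = 0.700, 0.763). Libraries ran from 6.47 to 10.6 CPM for Polr3k, 5.22 to 9.13 for Lrwd1 and 3.59 to 8.19 for Hikeshi, against 3.88 to 9.25 for Lgr5. They ran from 4.31 to 9.49 CPM for Smt3h2-ps4, 35.1 to 42.9 for Arih1 and 3.88 to 10.7 for Pola2, against 0.288 to 47.3 for Olfm4. A high r thus does not mean a change of the same size. These genes are the highest of many and are given as a likeness with no test.

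The rest of the Wnt pathway was taken from lists of ligands, receptors, antagonists and intracellular parts. By edgeR 0 genes of the 8 pathway lists passed the adjusted threshold. Over all genes tested, 51.2% lay below 0 and 10.7% had an unadjusted edgeR p under 0.05 (5.79% lower and 4.86% higher in dIEC). Genes of these lists, too, may vary together. Apart from Lgr4 and Slc12a2, the genes named are the 2 with the lowest edgeR p of each list in these data. Their exact permutation p-values are unadjusted and give no separate support. Of 14 Wnt ligands, R-spondins and secretion factors, 7 were tested, and all 7 lay below 0 (median -0.45, 2 at an unadjusted p under 0.05). Wls, which carries Wnt proteins to the cell surface, averaged 28.7 ± 5.76 CPM over the 6 WT and 20.1 ± 2.18 CPM over the 5 dIEC libraries (± SD, here and below, for means), with a log2 fold change of -0.51 ± 0.15 (SE; edgeR adjusted p = 0.427, exact permutation p = 0.0216). Wnt2b, a ligand made in the stroma around crypts, averaged 12.7 ± 2.93 and 9.34 ± 0.900 CPM, a log2 fold change of -0.45 ± 0.16 (edgeR adjusted p = 0.427, exact permutation p = 0.0563). Without WT replicate 8, Wls and Wnt2b passed over all genes (edgeR adjusted p = 0.0328 and 0.0421), when 319 of 15794 genes did. The cause of this change was not tested. With 1 library left out, the adjusted p of Wls and of Wnt2b reached as much as 0.713. With the epithelium score as a covariate their log2 fold changes were -0.24 and -0.13.

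The receptors were divided: of 16 listed, 13 were tested, 6 above and 7 below 0 (median -0.25). Lgr4, the R-spondin receptor found throughout the crypt, was the 1 gene higher at an unadjusted p under 0.05, with 73.2 CPM in WT and 93.8 in dIEC and a log2 fold change of 0.36 ± 0.16 (edgeR adjusted p = 0.444), opposite in sign to its relative Lgr5. It was named after its values were seen. The Frizzled receptors Fzd7, known as the receptor of Lgr5 cells, and Fzd4 lay lower. Fzd7 averaged 9.60 ± 1.66 and 6.95 ± 1.45 CPM, a log2 fold change of -0.48 ± 0.16 (edgeR adjusted p = 0.427, exact permutation p = 0.0260). Fzd4 averaged 7.75 ± 1.56 and 5.74 ± 1.16 CPM, a log2 fold change of -0.44 ± 0.18 (edgeR adjusted p = 0.436, exact permutation p = 0.0519).

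The 7 antagonists tested of 16 also lay below 0 (median -0.33, 2 at an unadjusted p under 0.05). Nkd1, a feedback inhibitor induced by Wnt, averaged 10.7 ± 4.01 CPM in WT and 6.98 ± 2.47 in dIEC, a log2 fold change of -0.64 ± 0.28 (edgeR adjusted p = 0.444, exact permutation p = 0.0996). Sfrp1, a secreted Wnt binder of the stroma, averaged 19.9 ± 6.80 and 13.8 ± 2.19 CPM, a log2 fold change of -0.54 ± 0.24 (edgeR adjusted p = 0.455, exact permutation p = 0.0909). With 1 library left out, its edgeR adjusted p ran from 0.0349 (without WT replicate 8, when 319 of 15794 genes passed) to 0.722. With the epithelium score as a covariate, Sfrp1 was at -0.13 and Nkd1 at -0.10. Ligands and their antagonists therefore lay on the same side of 0.

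The destruction complex and nuclear factors showed no common direction: of 20 listed, 19 were tested, 13 above and 6 below 0 (median 0.04, 1 at an unadjusted p under 0.05). Axin1, the constitutive scaffold related to Axin2, averaged 14.3 ± 1.61 CPM in WT and 16.7 ± 1.72 in dIEC, a log2 fold change of 0.22 ± 0.11 (edgeR adjusted p = 0.476, exact permutation p = 0.0519). Btrc, the part of a ubiquitin ligase that recognises beta-catenin, had a log2 fold change of -0.30 ± 0.13 (edgeR adjusted p = 0.444, exact permutation p = 0.0260).

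Other targets and markers lay mostly on the same side of 0 as the 10 genes. Of 14 other Wnt targets of the crypt, 11 were tested, with 2 above and 9 below 0 (median -0.20, 1 at an unadjusted p under 0.05). Jag1, a Notch ligand, averaged 9.76 ± 1.93 CPM in WT and 7.25 ± 0.779 in dIEC, a log2 fold change of -0.43 ± 0.15 (edgeR adjusted p = 0.427, exact permutation p = 0.0130). Ephb3, a receptor that positions cells in the crypt, averaged 9.57 ± 1.16 and 6.75 ± 3.06 CPM, a log2 fold change of -0.47 ± 0.22 (edgeR adjusted p = 0.472, exact permutation p = 0.0736). Of 16 other genes listed for crypt base columnar cells, 14 were tested, 3 above and 11 below 0 (median -0.21, 3 lower at an unadjusted p under 0.05). The lowest p-values among them belonged to Fstl1 (log2 fold change -0.70 ± 0.27, edgeR adjusted p = 0.428, exact permutation p = 0.0736) and Igfbp4 (-0.58 ± 0.23, edgeR adjusted p = 0.434, exact permutation p = 0.0866), genes that fibroblasts also express strongly. With the epithelium score as a covariate Fstl1 was at -0.10 and Igfbp4 at -0.18. Slc12a2 was also lower at an unadjusted p under 0.05 (124 CPM in WT and 103 in dIEC, log2 fold change -0.27 ± 0.12, edgeR adjusted p = 0.454). It was named after its values were seen.

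The reserve stem cell genes, listed for cells above the crypt base had 1 of 3 above 0 (median -0.08). Bmi1, a polycomb protein, averaged 10.5 ± 0.492 CPM in WT and 9.90 ± 1.25 in dIEC, a log2 fold change of -0.08 ± 0.11 (edgeR adjusted p = 0.809, exact permutation p = 0.333). Tert, the telomerase reverse transcriptase, averaged 1.98 ± 0.715 and 1.36 ± 0.449 CPM, a log2 fold change of -0.51 ± 0.30 (edgeR adjusted p = 0.528, exact permutation p = 0.117). In the Notch pathway, which keeps stem cells from turning secretory, 10 of 11 genes were tested, 2 above and 8 below 0 (median -0.17). The receptor Notch1 averaged 28.5 ± 3.35 and 23.97 ± 3.57 CPM, a log2 fold change of -0.25 ± 0.12 (edgeR adjusted p = 0.468, exact permutation p = 0.0563). The ligand Dll1 averaged 8.31 ± 1.54 and 6.39 ± 1.49 CPM, a log2 fold change of -0.36 ± 0.17 (edgeR adjusted p = 0.472, exact permutation p = 0.0606).

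**Figure D5:**
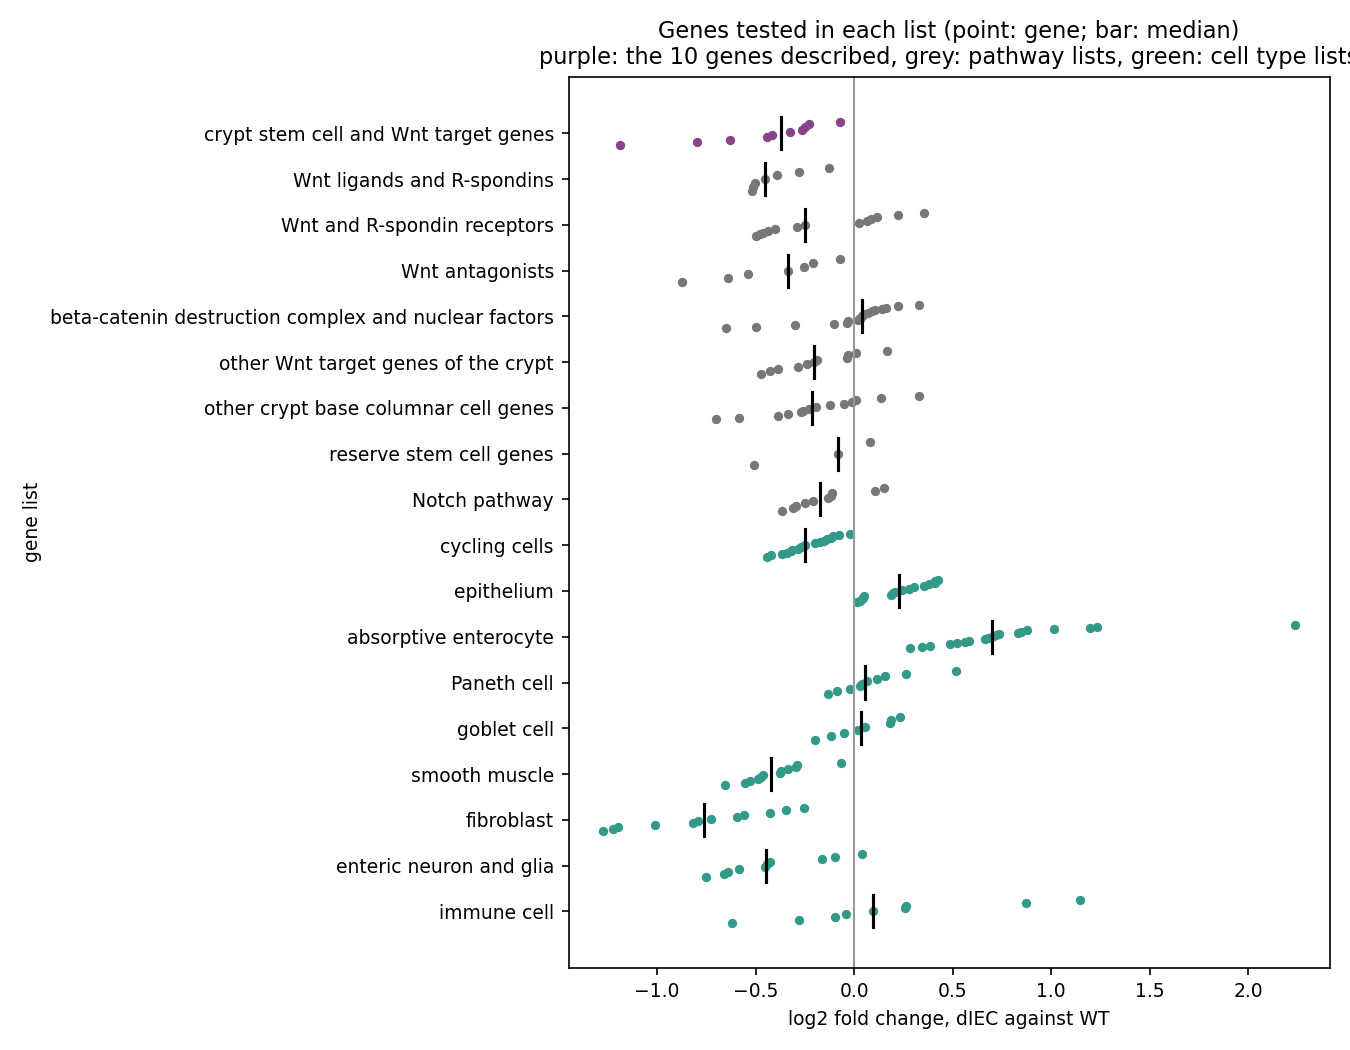
Log2 fold change of dIEC against WT for every tested gene of each list, with the list's median as a black bar; the 10 crypt genes are purple, pathway lists grey and cell type lists green. The median of the 10 genes (-0.37) lies between those of the Wnt antagonist list (-0.33) and the smooth muscle list (-0.42). Single genes among the 10 run from -1.19 to -0.07. The medians of the cycling cell list (-0.25) and the fibroblast list (-0.76) lie further out. Those of the enterocyte list (0.70) and the epithelium list (0.23) lie on the other side of 0.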

How the data were processed

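RNA of 11 libraries (6 WT, 5 dIEC) was prepared with a directional NEBNext Ultra kit, per the labels' protocols, and aligned to mm10 with TopHat2, per the submitters' processing notes. No source used here names the counting tool or its strand setting, so reads of overlapping and antisense genes cannot be told apart. The authors deposited raw counts per gene, as whole numbers. Of 31169 rows, 1 named no gene (0.00778 to 0.0147% of a library's counts) and was left out. Of the symbols, 99.2% occur in GENCODE vM21 (GRCm38), the source of coordinates and exon lengths.

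Genes were kept with filterByExpr of edgeR 4.0.16 (R 4.3.3) and scaled with TMM factors. Genotypes were compared (dIEC against WT) with edgeR's quasi-likelihood test and Benjamini-Hochberg adjustment over 15911 genes, threshold 0.05, checked on simulated data. Alternatives were DESeq2 1.42.0, other scalings and filters, score covariates and leaving out each library. Values of single genes and ratios had exact permutation tests, two-sided, over the 462 splits. The limit for 0 counts is 3 counts, for counting error only. Libraries held 0 to 83 counts of Ascl2, Msi1, Lgr5 and Tnfrsf19, which limits the precision of these genes. Correlations used log2 CPM with a prior count of 2. The 10 genes and all gene lists were chosen with earlier results of these data known, and the promoter motifs after the sequences were seen. Genes named are these 10, the 2 with the lowest p of each pathway list, and the 3 most like Lgr5 and Olfm4 by Pearson r, leaving out symbols of the Gm-number and Rik kind. Lgr4 and Slc12a2 were added after their values were seen.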

Additional observations from a re-analysis of the deposited data

Results flagged for a closer look

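Among 72 groups of library values tested for a value that stands apart, 2 stood out, while chance alone gives about 1 in 20. Both belonged to WT replicate 8 and to genes of the pathway lists, not to the 10 crypt genes. Fzd4, a Frizzled receptor, had 4.76 CPM in that library against 7.39 to 8.82 CPM in the other WT libraries. Axin1, a scaffold of the destruction complex, had 17.3 CPM there against 12.9 to 14.5 CPM. Both values lay on the dIEC side of the WT mean. The library also had the lowest fibroblast sum (418.5 CPM) and the highest enterocyte sum (12658 CPM) of the WT group, and their part in these values was not tested.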

How the results depend on the processing

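Over 187 alternative values of the 10 genes' log2 fold changes, 182 kept their direction, 5 changed sign and 0 passed the adjusted threshold (adjusted p 0.0771 to 0.9997). Ascl2 changed sign with the epithelium score as a covariate (0.17) and with the smooth muscle score (0.12). Rnf43 changed sign with the epithelium score (0.019), without WT replicate 12 and without dIEC replicate 5, and ran from -0.17 to 0.039 with 1 library left out. Ascl2 was not tested without WT replicate 2, 4 or 7, where it missed the filter. For each of these changes the cause was not tested.

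The count of genes below 0 was 8 of 10 with the epithelium score and 9 of 10 with the smooth muscle score. It was 9 of 10 without WT replicate 12 or dIEC replicate 5. Without WT replicate 2, 4 or 7 it was 9 of the 9 tested. Leaving out any other library gave 10 of 10. The count at an unadjusted p under 0.05 was 0 with the epithelium score, where 3.81% of all genes had such a p. It was 5 with library size alone as the scaling (14.5% of all genes). With 1 library left out it was 2 to 5, against 6.70 to 21.0% of all genes. It was 5 without dIEC replicate 3 (9.20% of all genes) or 6 (14.4%). With the epithelium score Tnfrsf19 (-0.40) and Lrig1 (-0.14) were nearer to 0, and Msi1 was at -0.53. Library size alone also moved the median of all genes to -0.22 and that of the 10 genes to -0.59. Over all genes, DESeq2 called 11 (9 higher, 2 lower), library size alone 2 (1 lower), and leaving out 1 library gave 1 to 319 (1 to 213 higher, 0 to 106 lower), with 319 without WT replicate 8.

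Per epithelium counts, the log2 ratios (dIEC over WT) with 1 library left out ran from -0.74 to -0.31 for Lgr5, -2.09 to -1.12 for Olfm4, -0.92 to -0.48 for Smoc2, -1.39 to -0.88 for Tnfrsf19, -0.75 to -0.48 for Lrig1 and -0.72 to -0.40 for Znrf3, and each range crossed p = 0.05 by the exact permutation test. With Epcam alone as the denominator Smoc2 (-0.68) and Tnfrsf19 (-1.04) missed that threshold. With coding genes as the denominator Smoc2 (-0.51) missed it and Lrig1 (-0.43) passed it.

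Pairs of genes past the threshold numbered 40 with library size alone, 6 with group means subtracted and 0 to 19 with 1 library left out. Relations to the marker scores numbered 26 with library size alone, 10 with group means subtracted and 9 to 24 with 1 library left out (9 without dIEC replicate 1, 12 without WT replicate 4, 13 without WT replicate 2), alternatives chosen after seeing the data. No paired analysis was possible because the labels name no pairs or litters. The replicate numbers are running numbers, each given to a single library, so they hold no pairing.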
